A study of Mus musculus with 12 samples.

Results

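The genes described here are 41 genes of DNA replication and S phase, chosen by symbol from a fixed list, of 41128 genes counted in 12 mouse liver libraries. All 41 were found in the count table, and all 41 had enough counts to be tested in every comparison. By role they comprise 4 genes that mark and load origins, the 6 subunits of the MCM helicase, 6 genes of helicase activation, 8 of the polymerases and primase, 6 of the clamp, its loader and strand joining, 5 of nucleotide supply, 4 of chromatin copying and the 2 E cyclins.

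The study set hepatocytes next to liver tumours beside livers after a toxic injury. The 3 untreated and the 3 peritumoral libraries share the genotype label Lats1tm1.1Jfm/RjoJ; Lats2tm1.1Jfm/RjoJ, which denotes floxed alleles, and are titled wild type. No source used here says whether a Cre was present. Mice of the peritumoral group had received a hydrodynamic injection, which drives plasmids into hepatocytes, of 1 µg SB11 (a transposase), 20 µg myc-NICD (the active part of Notch) and 4 µg myr-ha-Akt (a membrane-bound kinase), and their tumours grew for 8 weeks. The other libraries carry the label CD-1 IGS Mouse (Charles River). They are 2 controls, 2 taken 24 h and 2 taken 48 h after an intraperitoneal dose of thioacetamide (TAA), a toxin that kills hepatocytes around the central vein. Whether the controls received vehicle is not stated. All labels give an age of 8 weeks, also for the peritumoral group, although its mice were injected at that age. By their own labels all 12 are Percoll-purified hepatocytes. The series design speaks of livers for the 6 libraries of the TAA experiment, and that word is used for them below. Separate animals behind the replicates are nowhere stated, so the p-values describe spread among libraries that may be technical.

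Before S phase, the origin recognition complex, with Cdc6 and Cdt1, loads the MCM helicase onto DNA. In S phase, E cyclins with their kinase partner, and then Cdc45 and the GINS complex, turn the loaded helicase on, and polymerases, the sliding clamp and strand-joining enzymes copy the DNA from a freshly made supply of nucleotides. Adult hepatocytes are mostly quiescent and re-enter the cycle after tissue loss or toxic injury. Many of these genes are classic targets of the E2F factors, which bind near their starts and are held in check by retinoblastoma proteins in resting cells.

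Promoter windows from 250 bases before to 50 bases after a RefSeq start (build GRCm38.p6) were at hand for 34 of the 41 genes, in 41 windows. The other 7 are Ccne2, Mcm4, Gins1, Gins2, Gins4, Pole and Prim2. An E2F type match was any of TTTCGCGC, TTTGGCGC and TTTCCCGC, and an NF-Y type match was CCAAT, each on both strands. Of the 34 genes, 16 held an E2F type match (47.1%, exact 95% interval 29.8 to 64.9%), against 573 of 27025 genes in the RefSeq table (2.12%) and 388 of 9872 genes with a window among those tested in livers (3.93%). An NF-Y type match was found in 19 of 34 (55.9%, exact 95% interval 37.9 to 72.8%). The share was 41.1% of all genes and 42.8% of those tested in livers, and both lie inside that interval. Within the last 150 bases before the start, the E2F type share was 20.6% against 1.19%. These shares describe letters in a window, and no binding was measured.

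The stretches below cover the 160 bases before the start, written 5′ to 3′ on the strand of the gene, with matches in capitals. They show genes with E2F type matches (Mcm6, Mcm5, Orc1 and Pola1), genes with an NF-Y type match only (Rrm2 and Mcm10), and Tk1, with neither. Mcm10 and Tk1 are shown because they fell 24 h after TAA, against most of the other genes, and Mcm10 also at 48 h.
Mcm6 (chr1:128359706-128359865, minus strand): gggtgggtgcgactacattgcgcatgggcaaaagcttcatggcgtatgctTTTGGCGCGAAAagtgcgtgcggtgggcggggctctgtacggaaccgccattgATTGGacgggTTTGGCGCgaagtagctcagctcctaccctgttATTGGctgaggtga
Mcm5 (chr8:75109349-75109508, plus strand): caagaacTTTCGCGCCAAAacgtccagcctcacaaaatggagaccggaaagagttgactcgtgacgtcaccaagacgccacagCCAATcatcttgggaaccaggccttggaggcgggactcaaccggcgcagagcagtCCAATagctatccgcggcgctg
Orc1 (chr4:108579294-108579453, plus strand): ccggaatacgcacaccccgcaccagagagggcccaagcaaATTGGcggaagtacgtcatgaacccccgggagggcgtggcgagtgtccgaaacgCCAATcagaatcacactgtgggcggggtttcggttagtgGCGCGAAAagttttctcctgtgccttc
Pola1 (chrX:93632156-93632315, minus strand): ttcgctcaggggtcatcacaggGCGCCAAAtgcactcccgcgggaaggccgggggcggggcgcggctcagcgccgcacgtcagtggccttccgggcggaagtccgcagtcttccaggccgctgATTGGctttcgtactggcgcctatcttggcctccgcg
Rrm2 (chr12:24708094-24708253, plus strand): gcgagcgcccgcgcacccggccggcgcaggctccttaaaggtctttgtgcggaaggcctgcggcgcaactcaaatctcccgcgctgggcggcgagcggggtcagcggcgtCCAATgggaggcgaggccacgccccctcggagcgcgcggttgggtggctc
Mcm10 (chr2:5012792-5012951, minus strand): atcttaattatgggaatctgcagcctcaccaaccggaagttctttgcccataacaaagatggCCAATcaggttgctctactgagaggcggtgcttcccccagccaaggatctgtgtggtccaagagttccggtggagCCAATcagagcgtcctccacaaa
Tk1 (chr11:117826015-117826174, minus strand): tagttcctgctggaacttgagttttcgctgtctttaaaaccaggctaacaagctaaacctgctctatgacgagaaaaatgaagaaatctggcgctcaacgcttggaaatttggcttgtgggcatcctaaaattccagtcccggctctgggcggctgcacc

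In Mcm6 the E2F type matches begin at -110, -106 and -47 bases from the start, the former 2 overlapping on opposite strands. In Mcm5 they begin at -153 and -149 and overlap likewise. Bases just after the start were found in a GENCODE transcript of the gene for 35 of the 41 windows. The windows of Mcm5 and Mcm6 were not among these, so their distances rest on the RefSeq start alone. Orc1 holds 1 at -27 and Pola1 1 at -138. In 7 of the 16 genes a match lay within the last 150 bases before the start, and in others it lay just after the start, as in Cdt1 at 33, Pold3 at 18 and Pole2 at 11. All 4 E2F-bearing MCM genes with a window (Mcm3, Mcm5, Mcm6 and Mcm7) also held NF-Y type matches.

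**Figure D1:**
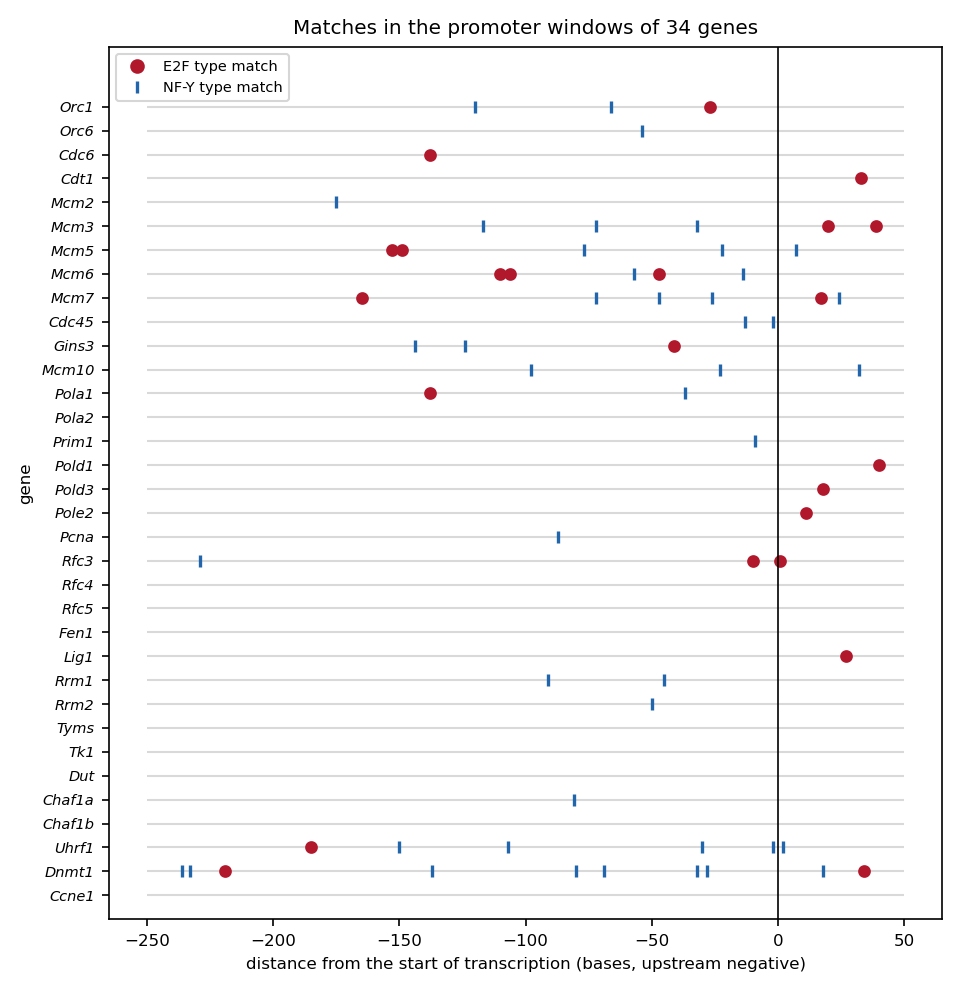
Positions of E2F type matches (red circles) and NF-Y type matches (blue bars) in the promoter windows of 34 genes, in bases from the start of transcription on the x axis, with 1 line per gene. Several windows of 1 gene share a line. Matches of the E2F type occur in 16 genes, before and after the start.

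Levels are in CPM, counts relative to the TMM-adjusted library total, scaled separately in hepatocytes and in livers, so that levels of both sets are only set side by side. In control livers most of the 41 genes stood at a low level, with a median of 3.30 and 2.31 CPM and a sum of 265 and 210 CPM in replicates 1 and 2. Per kilobase of exon, Gins4 (a GINS subunit), Tk1 (thymidine kinase), Pcna (the sliding clamp), Mcm10 (a helicase activation factor) and Mcm7 led in control livers, at 6.90, 6.86, 6.55, 4.90 and 3.72 CPM per kb. Orc1, the large subunit of the origin recognition complex, was last at 0.0148 CPM per kb. After 48 h of TAA the order was led by Pcna at 24.2, Rrm2 (the regulated subunit of ribonucleotide reductase) at 23.5 and Mcm6 at 22.1 CPM per kb, while Orc1 was again last at 0.784. Untreated hepatocytes were led by Gins4 at 9.76 and Mcm6 at 9.14 CPM per kb, and peritumoral hepatocytes by Pcna at 11.5 and Gins4 at 8.56.

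**Figure D2:**
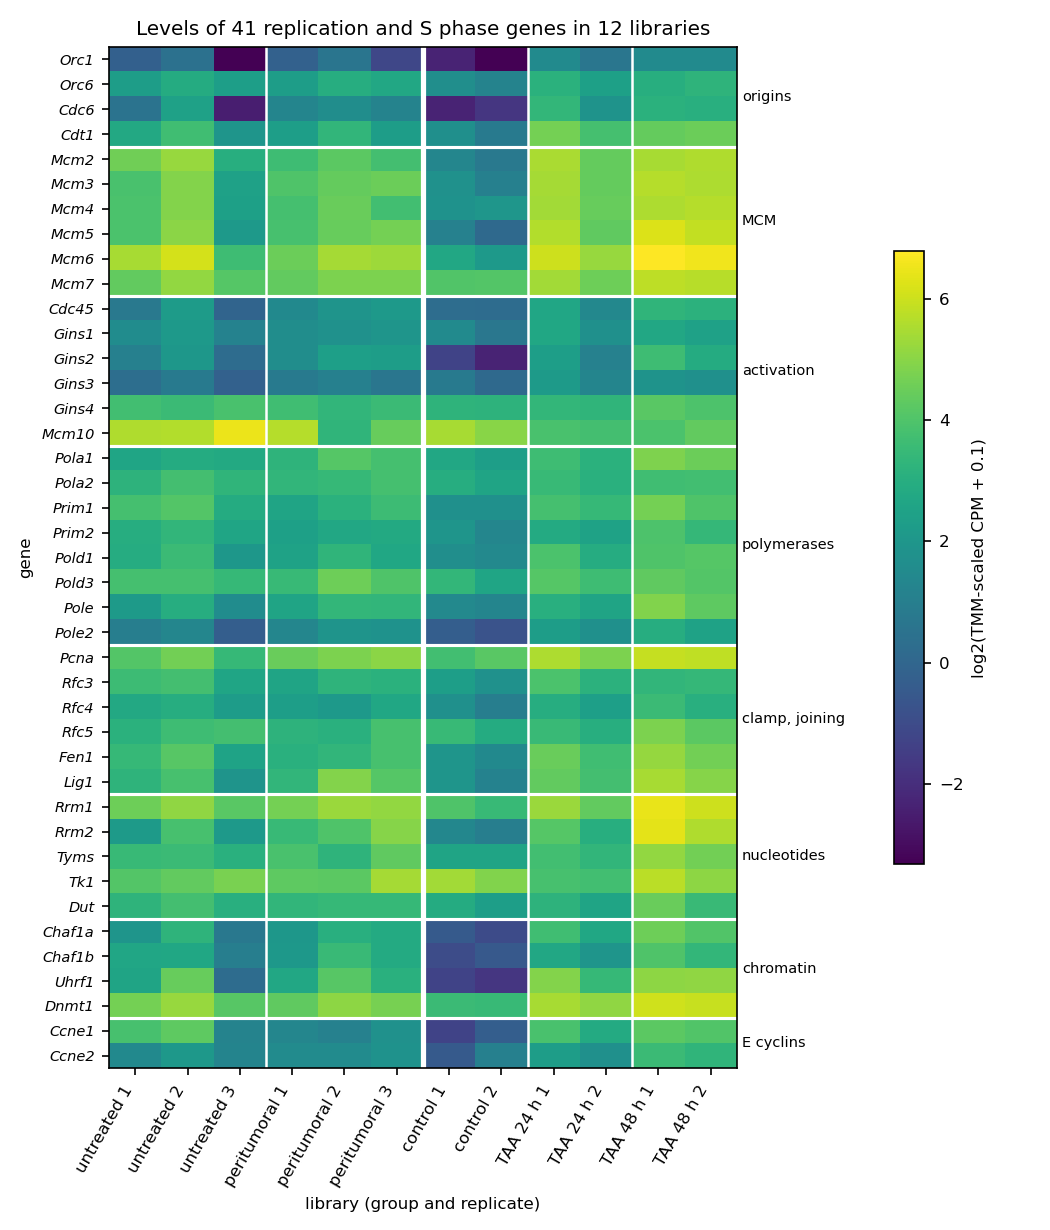
Level of each of the 41 genes (rows, grouped by role between white lines) in each of the 12 libraries (columns), as log2(TMM-scaled CPM + 0.1), with yellow high and purple low. The control livers are dark in most rows, the livers 48 h after TAA are bright, and Mcm10 and Tk1 depart from that order.

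The libraries of a group were not alike. Among untreated hepatocytes, replicate 2 was the highest in 36 of 41 genes and replicate 3 the lowest in 34, and the sums were 469, 703 and 355 CPM in replicates 1, 2 and 3. The median ratio of the highest to the lowest untreated library was 2.30, and it exceeded 2 in 26 genes. The peritumoral sums were 423, 561 and 576 CPM. Among livers, replicate 1 of the 24 h group was above replicate 2 in 41 of 41 genes, with sums of 798 and 463 CPM. At 48 h replicate 1 was higher in 31 genes, with sums of 1282 and 1055 CPM, and in controls replicate 1 was higher in 33. The total counts of the 12 libraries ranged from 9640845 to 18522324.

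At 24 h after TAA, transcripts of origin loading, the MCM helicase, chromatin copying and the E cyclins stood many-fold above control liver. The medians of helicase activation, the polymerases, the clamp and joining genes and nucleotide supply were smaller. Of the 41 genes, 34 rose and 2 fell at an adjusted p under 0.05 (edgeR's quasi-likelihood test, n = 2 each). Among all 13497 genes tested in livers, 21.3% were higher and 20.5% lower. The median log2 fold change of the 41 genes was 1.80 against 0.02 over all genes. Both 24 h libraries lay above both controls in 37 of the 41 genes, against 38.3% of all genes tested. The 2 genes that fell were Mcm10 and Tk1, and the 5 that did not pass were Gins1, Gins4, Pola2, Rfc5 and Dut. Without replicate 1 of the 24 h group, which leaves a lone library there, the median of the 41 genes was 1.32. Calls were then fewer among the 41 genes and over all genes. Of the 36 calls, 22 held whichever control or 24 h library was left out. The other 14 were those of Orc6, Mcm7, Cdc45, Gins3, Pola1, Prim2, Pold3, Pcna, Rfc3, Rfc4, Rrm1, Tyms, Tk1 and Ccne2. In bulk libraries such as these, more cells in S phase and more RNA per cell cannot be told apart.

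All 4 origin genes rose at 24 h, with a median log2 fold change of 4.06. Cdc6, which loads the helicase together with Cdt1, stood at 0.103 and 0.200 CPM in the controls, 10.2 and 3.51 at 24 h and 8.57 and 8.2 at 48 h. Cdt1 stood at 3.20 and 1.70 CPM in the controls, 25.5 and 13.9 at 24 h and 20.8 and 22.7 at 48 h. The control values lay below all 4 TAA values for both genes, and the 24 h and 48 h libraries overlapped. Cdt1 rose by 3.0 ± 0.39 (log2 ± SE, adjusted p = 0.0019) at 24 h and by 3.15 ± 0.39 (adjusted p = 0.0011) at 48 h. Cdc6 rested on 3 counts over both control libraries, which gives a ratio of 44.3 at 24 h (exact 95% interval 14.9 to 217, for counting error only) and 54.9 at 48 h (18.5 to 268). Orc1 rested on 1 control count, with ratios of 41.2 (7.12 to 1656) and 53.7 (9.34 to 2149). Orc6, a small subunit of the same complex, rose by 1.39 ± 0.33 and 1.70 ± 0.33.

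All 6 MCM subunits rose at both times, with a median of 3.39 at 24 h and 4.21 at 48 h. Mcm6 stood at 6.5 and 4.31 CPM in the controls, 63.9 and 37.0 at 24 h and 110 and 95.8 at 48 h. Mcm5 stood at 2.06 and 1.00 CPM in the controls, 48.7 and 19.6 at 24 h and 76.3 and 57.4 at 48 h. For both genes the 3 groups did not overlap and stood in the order control, 24 h, 48 h. The log2 fold changes at 24 h were 4.47 ± 0.54 for Mcm5, 4.07 ± 0.42 for Mcm2, 3.56 ± 0.40 for Mcm3, 3.22 ± 0.32 for Mcm6 and 3.09 ± 0.32 for Mcm4, with adjusted p-values from 0.00085 (Mcm6) to 0.0015 (Mcm5). At 48 h they were 5.44 ± 0.56, 4.52 ± 0.42, 4.17 ± 0.41, 4.25 ± 0.33 and 3.71 ± 0.33 in the same order. Mcm7 started higher, at 16.3 and 16.6 CPM in the controls, and reached 42.1 and 23.2 CPM at 24 h and 54.8 and 52.4 at 48 h. Its rise was 0.99 ± 0.26 (adjusted p = 0.025) and 1.70 ± 0.27 (adjusted p = 0.0027). The 24 h call of Mcm7 was lost without either control or replicate 1 of the 24 h group (0.50 to 0.99, adjusted p up to 0.091), and 12.6% of its exon length is shared with other genes.

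Among the genes that turn the helicase on, Gins2, a GINS subunit, went from 0.309 and 0.10 CPM in the controls to 4.92 and 2.06 at 24 h and 12.4 and 7.34 at 48 h. The controls held 4 counts of Gins2 in all, at or below the floor of 3 counts per library, so the size of its change is loosely set. The fitted log2 fold changes were 4.03 ± 0.72 (adjusted p = 0.0056) and 5.53 ± 0.69 (adjusted p = 0.0010), and 67.3% of the Gins2 exon length is shared with Gse1. Cdc45, which joins the MCM ring to GINS, rose by 1.96 ± 0.47 and 3.03 ± 0.46. At 24 h Cdc45 did not pass without either control (adjusted p = 0.076 and 0.081) or without replicate 1 of the 24 h group, where it was 1.18 (adjusted p = 0.055). Gins1 and Gins4 did not pass at 24 h, at 1.16 ± 0.42 and 0.10 ± 0.17, and rose by 1.48 ± 0.42 and 0.86 ± 0.17 at 48 h. Gins4, well expressed in every group, stood at 9.49 and 9.12 CPM in the controls and 18.4 and 15.4 at 48 h.

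Mcm10, which helps the helicase to open DNA, went the other way. Its level was 44.0 and 31.3 CPM in the controls, 14.8 and 13.3 at 24 h and 15.3 and 20.3 at 48 h. Both control libraries lay above all 4 TAA libraries. Mcm10 fell by 1.42 on the log2 scale at 24 h (SE 0.22, adjusted p = 0.0037) and by 1.08 at 48 h (SE 0.22, adjusted p = 0.0074). Without scaling factors, when the median of all genes moved from -0.03 to 0.68 at 48 h, the Mcm10 value there was -0.37 (adjusted p = 0.17), and with all 12 libraries in 1 fit it did not pass at either time (adjusted p = 0.15 and 0.23).

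The polymerase medians were 1.29 at 24 h and 2.34 at 48 h, with 7 and 8 of 8 genes higher. Pole, the catalytic subunit of the leading-strand polymerase, stood at 2.58 and 2.31 CPM in the controls, 8.30 and 5.85 at 24 h and 28.9 and 19.1 at 48 h. Pola1, the catalytic subunit of the polymerase that starts each strand with primase, stood at 6.6 and 5.01 CPM in the controls, 12.3 and 8.67 at 24 h and 28.6 and 22.9 at 48 h. The 3 groups did not overlap for either gene. The changes of Pole were 1.53 ± 0.30 at 24 h and 3.29 ± 0.30 at 48 h, and those of Pola1 were 0.85 ± 0.25 and 2.15 ± 0.25. Pole2, a partner subunit of Pole, rose by 2.70 ± 0.39 and 3.42 ± 0.39, and Pold1, the catalytic subunit of the lagging-strand polymerase, by 1.98 ± 0.35 and 2.54 ± 0.35. Prim1, the primase, rose by 1.90 ± 0.29 and 2.65 ± 0.29. Pola2 did not pass at 24 h (0.52 ± 0.23) and rose by 0.91 ± 0.23 at 48 h.

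Of the clamp and joining genes, 5 of 6 rose at 24 h and 6 of 6 at 48 h, with medians of 1.41 and 1.91. Pcna stood at 13.1 and 18.3 CPM in the controls, 46.9 and 27.7 at 24 h and 60.1 and 56.2 at 48 h, again without overlap. Its rise was 1.25 ± 0.27 (adjusted p = 0.013) and 1.89 ± 0.28 (adjusted p = 0.0021). At 24 h Pcna did not pass without control replicate 1 or replicate 1 of the 24 h group (adjusted p = 0.061 for both). Lig1, the ligase that joins lagging-strand fragments, rose by 2.55 ± 0.35 and 3.67 ± 0.36. Fen1, the nuclease that trims them, rose by 2.43 ± 0.35 and 3.22 ± 0.35, and 84.2% of its exon length is shared with other genes. Rfc5, a clamp loader subunit, did not pass at 24 h (0.07 ± 0.30), with overlapping libraries, and rose by 1.33 ± 0.30 at 48 h.

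Nucleotide supply was the role with the smallest median at 24 h, 0.96, and reached 2.36 at 48 h. Rrm2 stood at 2.48 and 1.90 CPM in the controls, 17.1 and 7.98 at 24 h and 82.1 and 48.3 at 48 h. The 3 groups did not overlap, and the changes were 2.51 ± 0.45 (adjusted p = 0.0059) and 4.89 ± 0.47 (adjusted p = 0.00050). Rrm1, the large partner of Rrm2, rose by 1.11 ± 0.34 and 2.48 ± 0.35, and Tyms, which makes thymidylate, by 0.96 ± 0.24 and 2.36 ± 0.24. Dut, which removes dUTP, did not pass at 24 h (0.28 ± 0.39) and rose by 1.43 ± 0.38 at 48 h.

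Tk1, which recovers thymidine for DNA synthesis, stood at 41.8 and 29.6 CPM in the controls, 14.3 and 13.3 at 24 h and 53.6 and 33.2 at 48 h. It was low in both 24 h libraries, and the control and 48 h libraries overlapped. It fell by 1.37 on the log2 scale at 24 h (SE 0.27, adjusted p = 0.0083) and stood at 0.28 ± 0.26 at 48 h (adjusted p = 0.41). Without either 24 h library the fall did not pass (adjusted p = 0.0532 and 0.0504). Exons of Tk1 share 1.6% of their length with Afmid on the opposite strand, and no source used here gives the strand used in counting.

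All 4 chromatin copying genes rose at both times, and their median of 4.96 was the largest of the 8 roles at 48 h, after 3.77 at 24 h. Uhrf1, which brings the methyltransferase Dnmt1 to freshly copied DNA, stood at 0.309 and 0.200 CPM in the controls, 29.9 and 10.8 at 24 h and 33.1 and 34.4 at 48 h. Chaf1a, a subunit of the factor that places histones behind the fork, stood at 0.619 and 0.401, then 12.9 and 6.4, then 23.7 and 16.3 CPM. For both genes the control libraries were far below the others. Chaf1b, the partner of Chaf1a, stood between 0.413 and 0.601 CPM in the controls. The control levels of Uhrf1, Chaf1a and Chaf1b were near the floor of 3 counts (0.301 to 0.309 CPM). The median of this role is therefore loosely set. The log2 fold changes of Uhrf1 were 6.27 ± 0.64 (adjusted p = 0.00088) and 7.0 ± 0.64 (adjusted p = 0.00042), on 5 counts over both controls. Those of Chaf1a were 4.21 ± 0.49 and 5.27 ± 0.49, with 52.5% of its exon length shared with Ubxn6, those of its partner Chaf1b were 3.33 ± 0.46 and 4.66 ± 0.45, and those of Dnmt1 were 1.80 ± 0.16 and 2.48 ± 0.16.

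Of the E cyclins, which drive entry into S phase, Ccne1 stood at 0.309 and 0.702 CPM in the controls, 14.6 and 7.15 at 24 h and 18.6 and 16.2 at 48 h. Ccne2 stood at 0.619 and 2.0, then 4.85 and 3.30, then 11.8 and 9.81 CPM. Neither gene showed overlap between controls and TAA libraries. Ccne1 rose by 4.39 ± 0.50 (adjusted p = 0.0012) and 5.07 ± 0.50 (adjusted p = 0.00053), and Ccne2 by 1.62 ± 0.48 (adjusted p = 0.035) and 3.02 ± 0.48 (adjusted p = 0.0027). The 24 h value of Ccne2 was 1.01 without control replicate 1, 1.32 without replicate 1 of the 24 h group and 1.86 without its replicate 2, and passed in none of these (adjusted p = 0.097, 0.17 and 0.063). It was 2.69 without control replicate 2.

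At 48 h, 39 of 41 genes were higher and 1, Mcm10, was lower, against 25.0% and 23.9% of all genes tested. The median was 2.65 against -0.03 over all genes. The 48 h and 24 h comparisons share the same 2 control libraries. Without 1 control or 48 h library, in fits that leave a lone library in a group, the median ran from 2.60 to 2.96. Of the 40 calls, 32 held whichever of these libraries was left out, and the other 8 were those of Gins1, Gins3, Gins4, Pola2, Pold3, Rfc3, Rfc5 and Dut.

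**Figure D3:**
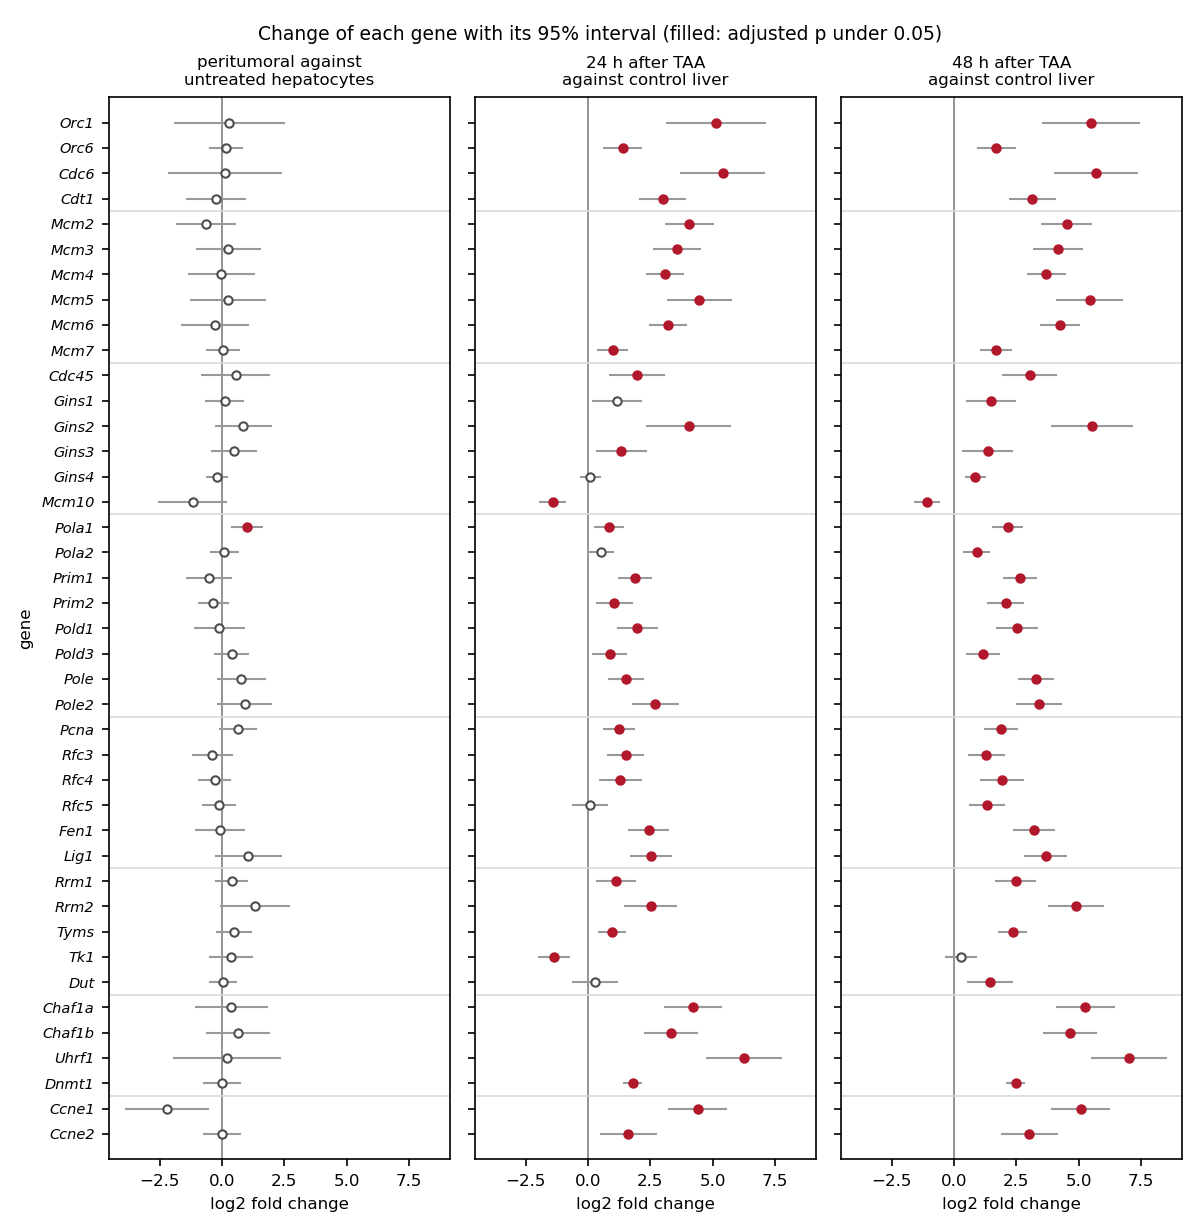
Log2 fold change of each gene (points) with its 95% interval (lines) in peritumoral against untreated hepatocytes, and in livers 24 h and 48 h after TAA against control livers. Filled points passed an adjusted p under 0.05: 1 gene on the left, 36 in the middle and 40 on the right.

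Between the TAA times, genes of the polymerases and of nucleotide supply made up 5 of the 7 that were higher at the later one. Of the 41 genes, 7 were higher at 48 h than at 24 h and 0 lower, against 4.96% and 2.36% of all genes tested, and 22 of 41 had an unadjusted p under 0.05, as had 27.5% of all genes. The median difference was 0.73 over the 41 genes against 0.01 over all genes. Of the 5 nucleotide genes 3 were higher: Rrm2 by 2.38 ± 0.41 (adjusted p = 0.026), Tk1 by 1.65 ± 0.27 (adjusted p = 0.025) and Tyms by 1.39 ± 0.23 (adjusted p = 0.025). The others were Pole at 1.76 ± 0.27, Pola1 at 1.29 ± 0.24, Gins4 at 0.76 ± 0.17 and Dnmt1 at 0.68 ± 0.15, with adjusted p-values of 0.023, 0.033, 0.047 and 0.047. None of the 4 origin genes passed, with a median of 0.30, and the difference between roles was not tested. None of the 6 MCM genes passed, Mcm6 having the largest value at 1.03 ± 0.29 (adjusted p = 0.078), and Mcm2, Mcm3, Mcm4, Mcm5 and Mcm7 stood between 0.45 and 0.97. Pcna stood at 0.64 ± 0.27, Uhrf1 at 0.73 ± 0.42, Ccne1 at 0.68 ± 0.36 and Ccne2 at 1.40 ± 0.42. Without either 24 h library or replicate 1 of the 48 h group, in fits that leave a lone library, most calls over all genes were lost. Those of these 7 genes were lost too. The median difference of the 41 genes ran from 0.42 to 1.21 with 1 library left out. With all 12 libraries in 1 fit 0 of the 41 passed, against 99 higher and 32 lower of 14615 genes. With DESeq2 14 were higher, against 980 of 13210 genes. Without scaling factors it was 13, against 1281 of 13497.

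**Figure D4:**
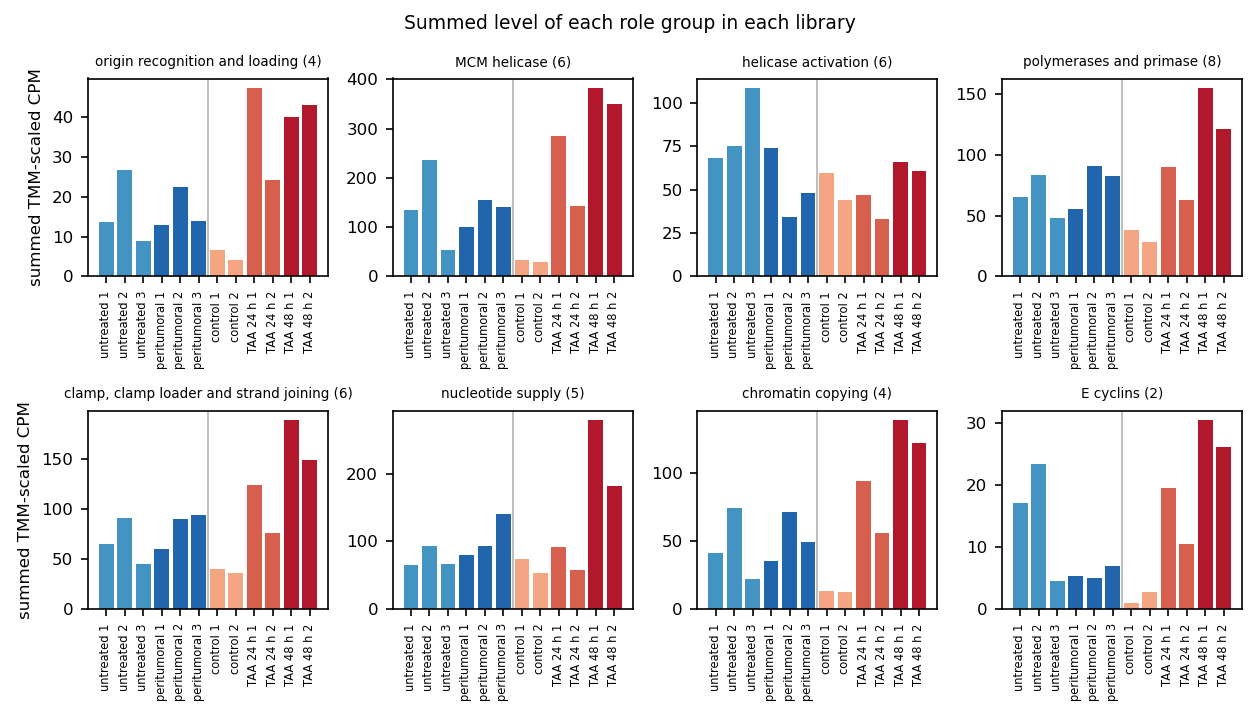
Summed TMM-scaled CPM of each role group (number of genes in brackets) in each of the 12 libraries, with hepatocytes left and livers right of the grey line and bars starting at 0. Nucleotide supply reached its highest sums at 48 h, the origin sum was higher in 24 h replicate 1 than in either 48 h library, and Mcm10 makes up most of the helicase activation sum in untreated and control libraries.

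In peritumoral hepatocytes few of these genes differed from untreated hepatocytes beyond the wide spread between libraries. Of the 41 genes, 1 rose and 0 fell at the same threshold (n = 3 each), against 19.0% and 10.2% of 13442 genes tested. At an unadjusted p under 0.05 there were 2 of 41 genes, against 42.3% of all genes. The median log2 fold change was 0.13 against -0.02 over all genes, with 27 genes above 0 and 14 below. The 95% interval still held a rise of more than 2-fold for 22 genes and a fall of more than 2-fold for 16, so changes of that size could not be told from none in many of them.

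Pola1 was the gene that passed. It stood at 6.12, 7.33 and 6.92 CPM in untreated and 9.51, 17.5 and 14.0 CPM in peritumoral hepatocytes. All 3 peritumoral libraries lay above the untreated ones, as they did for 1 other gene, Pole2, so for 2 of 41 genes against 25.0% of all genes tested. The log2 fold change of Pola1 was 1.01 ± 0.27 (adjusted p = 0.031). Leaving out any 1 of the untreated libraries, or either of peritumoral replicates 2 and 3, ended the call (adjusted p = 0.054 to 0.12), and with limma (adjusted p = 0.081 and 0.059).

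Ccne1 stood at 14.3, 19.2 and 2.20 CPM in untreated and 2.36, 2.07 and 3.35 CPM in peritumoral hepatocytes. Untreated replicates 1 and 2 were high, and replicate 3 was at the peritumoral level. The log2 fold change was -2.20 ± 0.71 (adjusted p = 0.059). Without untreated replicate 3 it was -2.70 (adjusted p = 0.017), with DESeq2 -2.21 (adjusted p = 0.0089), and with limma -1.41 and -1.48 (adjusted p = 0.28 and 0.26). Ccne2 stood at 0.01 ± 0.32.

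Mcm6 stood at 44.3, 71.1 and 12.5 CPM in untreated and 22.9, 43.0 and 39.4 CPM in peritumoral hepatocytes. The untreated values ran from below to above all peritumoral ones, and the same held for Mcm2, Mcm3, Mcm4, Mcm5, Uhrf1 and Cdc6. The MCM changes ranged from -0.64 ± 0.51 (Mcm2) to 0.26 ± 0.54 (Mcm3), with a median of 0.01, and none passed. Without untreated replicate 3, Mcm2 passed at -1.06 (adjusted p = 0.049). Pcna stood at 0.66 ± 0.32, Cdc6 at 0.13 ± 0.96, Cdt1 at -0.23 ± 0.50, Uhrf1 at 0.21 ± 0.91 and Tk1 at 0.35 ± 0.37. Rrm2 stood at 4.5, 14.2 and 4.25 CPM in untreated and 11.1, 16.1 and 30.9 CPM in peritumoral hepatocytes, with untreated replicate 2 inside the peritumoral range, and its change was 1.34 ± 0.59 (adjusted p = 0.13). Mcm10 stood at 47.4, 48.8 and 89.0 against 50.8, 9.66 and 21.8 CPM, also with overlap.

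**Figure D5:**
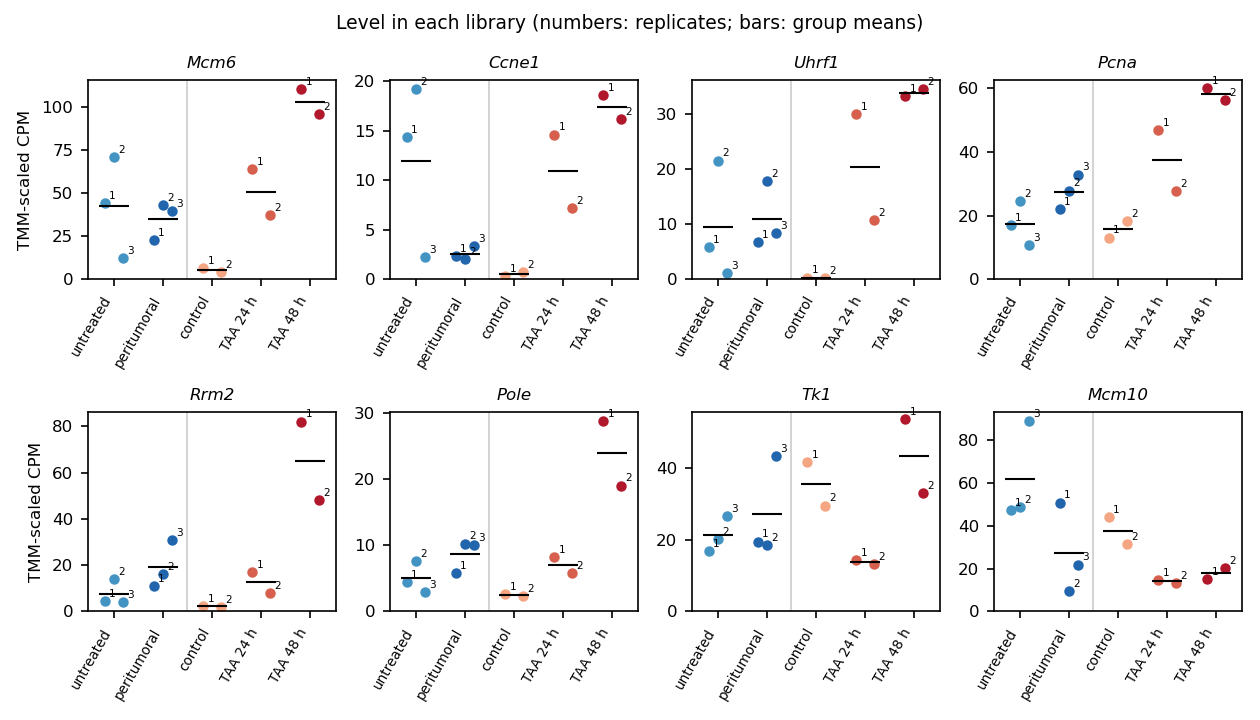
TMM-scaled CPM of 8 genes in each library (points, numbered by replicate) with group means (bars), hepatocytes left and livers right of the grey line. Mcm6, Uhrf1, Pcna, Rrm2 and Pole are lowest in controls and highest at 48 h among livers, Tk1 is lowest at 24 h, Mcm10 is lower after TAA, and untreated replicate 3 lies apart from the other untreated libraries for Mcm6 and Ccne1.

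The change in peritumoral hepatocytes was then set against the change after TAA in 1 fit of all 12 libraries, which tests the difference of both changes. Relative to 24 h after TAA, the change was lower for 18 genes and higher for 0, against 12.1% and 9.03% of 14615 genes tested, with a median difference of -1.71. Relative to 48 h, it was lower for 27 and higher for 0, against 8.57% and 6.71%, with a median of -2.59. All 6 MCM genes, all 4 chromatin copying genes and both E cyclins were among the 27. The differences from the 48 h change were -7.38 ± 1.17 for Ccne1 (adjusted p = 0.0078), -5.25 ± 0.84 for Mcm2 (adjusted p = 0.0079), -4.63 ± 0.87 for Mcm6 and -3.63 ± 0.91 for Rrm2. Stock and, by the series design, preparation differ between both sets and cannot be told apart from the treatments. Both differences share the control and hepatocyte libraries. Without either control or replicate 1 of either TAA group, in fits that leave a lone library, most calls were lost. This held for the 41 genes and over all genes. With any 1 library left out, the median difference ran from -1.99 to -1.38 for 24 h and from -2.96 to -2.21 for 48 h. With limma on log2(RPM + 0.5), 9 genes were lower relative to 24 h, against 1344 of 17311 genes. Without untreated replicate 1, 16 were lower relative to 48 h, against 415 of 14425.

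Another 57 genes of replication were read from lists beside the 41 genes. At 24 h, 30 of 57 were higher and 2 lower, against 21.3% and 20.5% of all genes tested. At 48 h, 39 were higher and 2 lower, against 25.0% and 23.9%. The medians were 0.88 and 1.07, against 0.02 and -0.03 over all genes. Hells, a chromatin remodeller of DNA methylation, stood at 1.24 and 1.00 CPM in the controls, 14.3 and 7.84 at 24 h and 31.1 and 28.8 at 48 h. Dbf4, the activator of the origin-firing kinase, stood at 2.06 and 1.2, then 5.73 and 5.43, then 25.3 and 15.3 CPM. In both genes the groups did not overlap, and Dbf4 was higher at 48 h than at 24 h by 1.86 ± 0.32 (adjusted p = 0.026). Rnaseh2c, a subunit of the enzyme that removes RNA from DNA, fell by 1.28 at 24 h (SE 0.23) and by 0.90 at 48 h (SE 0.23).

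In peritumoral hepatocytes, 4 of the 56 tested were higher and 3 lower, against 19.0% and 10.2% of all genes tested. Their median was -0.05, against -0.02 over all genes. Ccna2, the cyclin that follows the E cyclins through S phase and into mitosis, stood at 1.10, 2.33 and 0.708 CPM in untreated and 15.8, 15 and 21.9 CPM in peritumoral hepatocytes. The groups did not overlap, and the change was 3.65 ± 0.45 (adjusted p = 0.0042). In livers Ccna2 stood at 1.44 and 0.301 CPM in the controls, 4.11 and 3.44 at 24 h and 64.5 and 39.2 at 48 h, and it was higher at 48 h than at 24 h by 3.78 ± 0.48 (adjusted p = 0.015). Dbf4 rose by 1.16 ± 0.27 in peritumoral hepatocytes (adjusted p = 0.021), and the others were Ticrr, an origin-firing factor, at 2.23 ± 0.67 and Pclaf, a partner of the clamp, at 3.04 ± 0.83. Lower were Cad, which starts pyrimidine synthesis, at -1.69 ± 0.40, the nuclease-helicase gene Dna2 at -1.10 ± 0.25 and Nme1, a nucleoside diphosphate kinase, at -1.05 ± 0.24. Of these 7, Ccna2 alone passed whichever library was left out.

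Markers of other liver cells moved in the same comparisons. Of all genes tested, 21.3% were higher at 24 h and 25.0% at 48 h after TAA, and 19.0% in peritumoral hepatocytes. All 8 macrophage markers were higher 48 h after TAA and 4 of 8 at 24 h, and their summed level was 70.0 to 157 CPM in controls, 302 to 395 at 24 h and 567 to 912 at 48 h. Of 8 stellate cell markers, 7 and 8 were higher, with sums of 102 to 165, 385 to 424 and 985 to 1466 CPM. All 8 neutrophil markers were at 0 in the controls, with sums of at most 5.80 CPM after TAA. The sum of 10 hepatocyte markers was 234726 to 245016 CPM in controls, 114514 to 131980 at 24 h and 92916 to 100489 at 48 h. Of 8 endothelial markers 5 were higher at 24 h and 6 at 48 h, with sums of 168 to 199 CPM in controls and 283 to 385 CPM after TAA. Biliary sums in livers were 79.5 to 90.8 CPM in controls and 138 to 264 CPM after TAA. Of the 7 biliary markers tested in livers, 4 were higher at 24 h, and 2 were higher and 1 lower at 48 h. In peritumoral hepatocytes 8 of 8 endothelial, 7 of 8 macrophage, 6 of 8 stellate, 6 of 8 biliary and all 7 tested neutrophil markers were higher. The biliary sum there ran from 803 to 7944 CPM against 52.5 to 94.4 in untreated hepatocytes, and the macrophage sum from 1165 to 3413 against 202 to 330 CPM. The summed hepatocyte markers ran from 63750 to 148993 CPM in peritumoral and 92260 to 127215 CPM in untreated hepatocytes, with overlap. Summed lymphocyte markers stayed at or below 8.38 CPM in every library, and those of red blood cell precursors ran from 77.6 to 179 CPM in untreated, 8.34 to 76.7 in peritumoral hepatocytes and 8.16 to 26.7 CPM in livers. Untreated replicate 3, lowest in most replication genes, had the highest of these at 179 CPM. Their part in the replication results was not tested. Which cell type made a transcript cannot be told apart in bulk libraries.

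Genes with an E2F type match near the start can be set beside the others of the 34. At 24 h, the 16 with a match had a median log2 fold change of 2.63 (0.85 to 6.27) and the 18 without one 1.35 (-1.42 to 4.39), and at 48 h the medians were 3.28 and 2.42. The ranges overlap widely, and Ccne1, with a rise among the largest, held no match in its window. Between the TAA times the order was opposite, at 0.65 with and 0.92 without a match. Peritumoral medians were 0.22 and 0.13. These are descriptions of 34 genes, with no test.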

How the data were processed

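Polyadenylated RNA of 12 libraries was sequenced from a stranded kit, per the labels. The authors deposited raw counts per gene for 41128 genes, used in every main test, and RPM values of 17311 genes, each a count scaled by its library total (100% gave whole counts within 1e-06). The submitters' processing notes name STAR, DESeq2, mm10 and GRCm38. Their versions, the annotation and the strand setting are not in the sources used here. Reads of overlapping genes may therefore be shared, and exon overlaps and lengths were read from GENCODE M21 on GRCm38. Promoter sequences are RefSeq's.

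Counts were tested with edgeR 4.0.16 in R 4.3.3 (TMM, filterByExpr with minimum counts of 10 and 15, prior count 0.125, the two-sided quasi-likelihood F test, threshold 0.05 after Benjamini-Hochberg adjustment over all genes). The 6 hepatocyte libraries (13442 genes) and the 6 livers (13497) were fitted apart, and all 12 (14615) together for differences of changes. The TMM factors lay between 0.750 and 1.31 in the separate fits and between 0.753 and 1.40 in that of all 12 libraries, and the biological variation (square root of the common dispersion) was 0.358 among hepatocyte libraries and 0.188 among livers. Replicates differed beyond sampling noise in every group. In each library 3 counts, the floor, equal 0.124 to 0.309 TMM-scaled CPM. Scripts were tested on simulated data.

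The 41 genes, 57 other replication genes, 8 marker lists and the naming rule were chosen with earlier results of these data known. Named throughout are the MCM genes, Pcna, Cdt1, Cdc6, Rrm2, Tk1, Uhrf1 and the E cyclins, with the 2 largest called changes per role, genes against the majority, and those not called where 5 or fewer. From the other lists, the 2 called genes with the smallest p per list could be named. Orc6, Tyms, Chaf1b, genes listed for a lost call, some of the other replication genes, and values of genes that the rule names in another comparison were chosen after their values were seen. Alternatives were RLE or no scaling factors, no count filter, DESeq2 1.42.0, log2(RPM + 0.5) or log2(RPM + 0.1) in limma 3.58.1, the replicate number as a block, all 12 libraries in 1 fit, each library left out and, added after seeing the data, the legacy dispersion method.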

Additional observations from a re-analysis of the deposited data

Results flagged for a closer look

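For 7 genes the change after TAA differed between the times by the direct test of 48 h against 24 h livers. The contrast itself holds no control library, although the controls enter its scaling, count filter and estimate of the spread. The log2 differences were 2.38 for Rrm2, 1.76 for Pole, 1.65 for Tk1, 1.39 for Tyms, 1.29 for Pola1, 0.76 for Gins4 and 0.68 for Dnmt1. The calls of all 7 genes were lost without either 24 h library or replicate 1 of the 48 h group. Most calls over all genes were lost in these fits too, which leave a lone library in a group. Tk1 is the only one of the 7 genes that was below the controls at 24 h. No group had the 4 libraries that a test for a single outlying library needs.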

How the results depend on the processing

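Limits: with 2 or 3 libraries a group, leaving out 1 often leaves a lone library that is assumed to vary like the others, and fewer calls follow from fewer samples. Of 182 alternative counts and shares 139 stayed within 1.5 times the reported one. These include counts of 0 that stayed at 0, such as that of genes lower at 48 h than at 24 h. Orc1, Cdc6, Gins2 and Uhrf1 rest on 1, 3, 4 and 5 counts over both control libraries, which limits their fold changes. The cause of other shifts was not tested.

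In peritumoral hepatocytes 1 gene was lower with DESeq2 and 1 with all 12 libraries in 1 fit, and 0 were higher with limma at either pseudocount. With a library left out, 0 to 1 were higher and 0 to 2 lower. At 24 h, 0 were lower with all 12 libraries, and with a library left out 21 to 32 were higher and 1 to 2 lower. At 48 h, 0 were lower without scaling factors, with limma at either pseudocount and with all 12 libraries. Between the times, 13 were higher without scaling factors, 14 with DESeq2, 0 with all 12 libraries and 0 to 4 with a library left out. For the difference from 24 h, 1 was higher with RLE factors and 1 with DESeq2, 9 were lower with limma at 0.5, and with a library left out 0 to 1 were higher and 2 to 22 lower. For that from 48 h, 3 to 33 were lower with a library left out. The E2F type share was 20.6% in the last 150 bases.

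The few correlations at hand did not settle whether replicate numbers paired the hepatocyte libraries. Same-numbered ones deviated with correlations of -0.22, 0.17 and 0.10, and not every library correlated best with its own number. In livers the same-numbered correlations were 0.027, 0.026 and 0.023, and with 2 libraries a group the other pairs mirror these values. Replicate 1 was the highest in 33 of 41 genes in controls, 41 at 24 h and 31 at 48 h. Whether the livers were paired by number is therefore not settled. With the replicate number as a block, 17 genes were higher at 48 h than at 24 h, 1 gene was higher in the difference from 24 h, and the block values of Mcm4 (peritumoral) and Tk1 (difference from 48 h) were 0.24 and -0.076.

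Values whose sign turned had not passed the test. In peritumoral hepatocytes, Cdt1 was 0.021 without scaling factors and 0.074 and 0.086 with limma, Mcm4 was 0.19, 0.47 and 0.50 under the same, Mcm6 was 0.22 and 0.23 with limma, and Ccne2 was -0.0058 without the count filter. The difference of Tk1 from 48 h was -0.43 without scaling factors and -0.47 and -0.48 with limma. With a library left out, peritumoral values ran from -0.43 to 1.75 for Cdc6, -0.65 to 0.31 for Cdt1, -0.17 to 0.96 for Mcm3, -0.45 to 0.67 for Mcm4, -0.24 to 1.04 for Mcm5, -0.73 to 0.29 for Mcm6, -0.16 to 0.39 for Mcm7, -0.17 to 0.62 for Tk1, -0.33 to 1.63 for Uhrf1 and -0.16 to 0.29 for Ccne2. They ran from -0.20 to 0.38 for Rfc5 and -0.055 to 0.57 for Dut at 24 h, and from -0.11 to 0.59 for Tk1 at 48 h. Between the times they ran from -0.32 to 1.25 for Cdc6, -0.26 to 0.64 for Cdt1 and -0.039 to 1.11 for Mcm2, and for the difference of Tk1 from 48 h from -0.51 to 0.40.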
